A study of Mus musculus with 28 samples.

Results

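The genes described here encode voltage-gated sodium channels, voltage-gated calcium channels and HCN channels, measured by RNA sequencing in CA1 of the mouse hippocampus. They were chosen by symbol: Scn with a number and the ending a or b, Cacna1 with a letter, and Cacna2d, Cacnb or Hcn with a number. The rule found 36 of the 48709 gene identifiers in the count files, namely 10 sodium channel alpha subunits, 4 sodium channel beta subunits, 10 calcium channel alpha1 subunits, 4 alpha2delta subunits, 4 calcium channel beta subunits and 4 HCN channels. Of these, 32 passed the filter on low counts and were tested.

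The 28 libraries came from mice carrying a CamkdeltaC transgene and from wildtype littermates, all 3 months old. A group of 9 transgenic libraries came from mice that drank vehicle and another 9 from mice that drank vorinostat, a histone deacetylase inhibitor, for 4 weeks from 2 months of age, and 10 wildtype libraries came from mice that drank vehicle. A wildtype group on vorinostat was not analysed here. Animals of both sexes were used, and the sources used here do not give the sex behind each library. As background, CamkIIδC is a form of a calcium-dependent kinase, and this transgene is known as a heart failure model driven by a promoter of heart muscle rather than of brain cells. No label states that every library is its own mouse. The p-values therefore reflect the spread among these libraries, some of which may be technical.

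Sodium channel alpha subunits form the pore that carries the rising phase of the action potential, and beta subunits bind them and change their gating and their place in the membrane. Calcium channel alpha1 subunits form pores that open on depolarization and start transmitter release, dendritic calcium signals and low-threshold bursts, while alpha2delta and beta subunits carry the pore to the membrane and tune it. HCN channels open on hyperpolarization, carry a mixed cation current, and in CA1 pyramidal cells set dendritic excitability and resonance.

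The libraries held between 20230085 and 33191857 counts, and channel genes took between 0.42% and 0.554% of them. Mitochondrially encoded genes took 6.39% to 7.48% of counts in 4 libraries, wildtype vehicle 2 and transgenic vorinostat 6, 7 and 9, and 2.84% to 4.11% in the other 24. Most results that these 4 libraries touch are also given without them. All 8 listed CA1 pyramidal markers passed the filter, with summed levels of 1218 to 1705 CPM (a gene's counts scaled to its TMM-adjusted library total) in wildtype vehicle, 1251 to 1773 in transgenic vehicle and 1075 to 1630 in vorinostat. Listed interneuron markers, of another kind of neuron in this tissue, summed to 939 to 1049 CPM in wildtype vehicle. In bulk tissue, fewer cells of a type and less RNA per cell cannot be told apart.

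Promoters of 4 channel genes with GC-rich or GC-poor transcripts are shown, because the differences with vorinostat followed transcript base composition. The transcripts of Scn2a and Scn9a are not the poorest in GC among the channel genes. Hcn2 and Cacnb3 have transcripts with 65.4% and 61.3% GC, and those of Scn2a and Scn9a have 43.4% and 42.4%. Each sequence runs from 250 bases before to 50 bases after the annotated start, 5′ to 3′ on the strand of the gene, from RefSeq on GRCm38.p6. The positions are chr10:79716384-79716683 (plus strand) for Hcn2, chr15:98632078-98632377 (plus) for Cacnb3, chr2:65620519-65620818 (plus) for Scn2a and chr2:66634913-66635212 (minus) for Scn9a. Capitals mark the GC box core GGGCGG and its complement CCGCCC.
Hcn2: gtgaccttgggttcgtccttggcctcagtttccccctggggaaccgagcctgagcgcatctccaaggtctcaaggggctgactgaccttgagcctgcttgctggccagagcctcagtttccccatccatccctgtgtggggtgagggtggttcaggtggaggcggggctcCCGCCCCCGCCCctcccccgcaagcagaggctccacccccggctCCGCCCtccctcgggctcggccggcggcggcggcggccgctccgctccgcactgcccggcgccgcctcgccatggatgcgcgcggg
Cacnb3: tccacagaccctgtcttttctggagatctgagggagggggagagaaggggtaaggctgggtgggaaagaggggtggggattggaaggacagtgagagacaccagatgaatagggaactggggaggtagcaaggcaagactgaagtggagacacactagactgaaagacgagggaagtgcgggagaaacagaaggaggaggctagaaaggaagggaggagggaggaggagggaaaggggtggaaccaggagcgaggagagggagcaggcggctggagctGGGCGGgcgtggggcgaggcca
Scn2a: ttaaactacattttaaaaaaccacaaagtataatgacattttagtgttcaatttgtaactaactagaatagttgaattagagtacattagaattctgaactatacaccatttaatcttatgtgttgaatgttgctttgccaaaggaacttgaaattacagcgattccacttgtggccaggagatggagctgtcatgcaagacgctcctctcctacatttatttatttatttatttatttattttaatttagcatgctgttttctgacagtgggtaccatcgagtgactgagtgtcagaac
Scn9a: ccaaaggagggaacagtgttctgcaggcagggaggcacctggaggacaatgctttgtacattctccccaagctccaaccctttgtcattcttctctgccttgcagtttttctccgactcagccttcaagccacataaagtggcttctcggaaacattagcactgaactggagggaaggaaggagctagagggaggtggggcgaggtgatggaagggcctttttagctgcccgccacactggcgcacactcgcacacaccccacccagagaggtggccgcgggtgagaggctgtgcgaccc
The Hcn2 promoter held 3 GC boxes and 26 CpG and had 72.3% GC, and the Cacnb3 promoter held 1 GC box and had 59.7% GC. The Scn2a and Scn9a promoters held 0 GC boxes and had 33% and 57.3% GC. Promoter and transcript composition did not go together in every channel gene. Cacna2d1 and Cacnb4, with transcripts of 40.7% and 40.5% GC, had promoters of 80.0% and 78.3% GC with 6 and 5 GC boxes. Cacnb2 and Scn7a, with transcripts of 39.0% and 40.2% GC, had promoters of 71.7% and 54.0% GC with 1 GC box each. A RefSeq promoter was matched for 26 of the 36 channel genes. GGGCGG stood on either strand in 13 of those 26 (50.0%), against 35.7% of all 32851 promoters of the table. The channel promoters had a median GC content of 62.8%, with a range of 33% to 81.3%, against a median of 52.7% for all promoters. A match describes letters in this window and is not a binding site.

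Levels between genes were compared as RPKM, the CPM divided by the exon length of the gene in kilobases. In wildtype vehicle libraries the sodium channel beta subunits Scn2b and Scn3b stood at 64.95 ± 2.61 and 64.44 ± 10.6 RPKM and the calcium channel beta subunit Cacnb3 at 51.63 ± 4.76 RPKM (SD, n = 10), each above every pore-forming subunit in mean. Ordered by wildtype mean, 8 channel genes stood at 30 RPKM or more, 10 between 10 and 30, 8 between 1 and 10, and 10 under 1. Of the 35 pairs of neighbours in this order, the ranges of 33 overlapped.

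**Figure D1:**
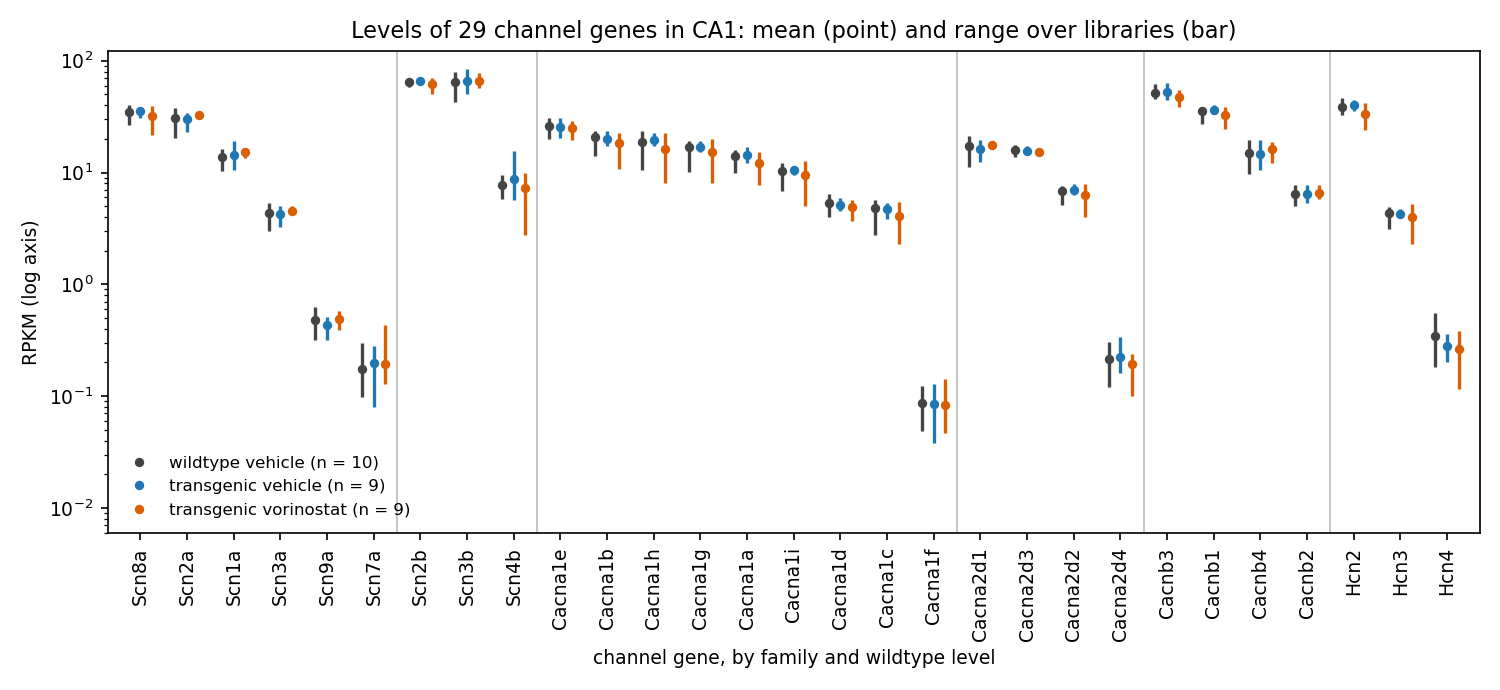
RPKM (log axis) of 29 tested channel genes, ordered by family and wildtype level, with points at group means and bars from the lowest to the highest library. Scn2b and Scn3b stand near 65 RPKM in wildtype libraries and Cacna1f under 0.1, while the 3 groups overlap for every gene shown.

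Among the sodium channel pores, Scn8a (Nav1.6, which clusters at the axon initial segment and nodes) and Scn2a (Nav1.2, of unmyelinated axons and dendrites) were the highest, at 34.92 ± 4.09 and 31.01 ± 4.6 RPKM in wildtype vehicle (SD, n = 10). Scn8a made up 41.1% ± 3.95 of the summed RPKM of the alpha subunits and Scn2a 36.2% ± 2.76. Their ranges overlapped. Scn1a (Nav1.1, prominent in inhibitory neurons) followed at 13.82 ± 1.89 RPKM and Scn3a (Nav1.3, more abundant early in development) at 4.372 ± 0.709. Scn9a (Nav1.7, of sensory neurons) and Scn7a (Nax, a sodium sensor) stood at 0.4764 and 0.175 RPKM. Scn4a, Scn10a and Scn11a, the channels of skeletal muscle and sensory neurons, did not pass the filter: Scn4a had 83 counts over all 28 libraries, Scn10a 11 and Scn11a 32. Scn10a had 0 counts in 20 of the 28 libraries, Scn11a in 8 and Scn4a in 1.

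Among the calcium channel pores, Cacna1e (Cav2.3, the R-type channel) was the highest in wildtype vehicle, with libraries at 19.84 RPKM (lowest), 26.76 (median) and 30.93 (highest). It made up 22.4% ± 2.56 of the summed RPKM of the alpha1 subunits (SD, n = 10). The presynaptic channel genes Cacna1b (N-type) and Cacna1a (P/Q-type) stood at 20.81 ± 2.94 and 13.91 ± 1.56 RPKM. The low-threshold T-type genes Cacna1h, Cacna1g and Cacna1i stood at 18.68, 17.07 and 10.3 RPKM. The L-type genes of neurons, Cacna1d and Cacna1c, were lower, at 5.366 and 4.787 RPKM. Cacna1f, the retinal L-type gene, was at 0.0873 RPKM, and Cacna1s, that of skeletal muscle, had 186 counts over all libraries and did not pass the filter. From Cacna1e to Cacna1i, each of these genes overlapped its neighbour in the order.

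Cacnb3 was the highest of the beta subunits, with wildtype libraries at 45.08 RPKM (lowest), 50.93 (median) and 61.95 (highest), followed by Cacnb1 at 35.51 ± 3.35, Cacnb4 at 14.8 ± 2.99 and Cacnb2 at 6.435 ± 0.942 (SD, n = 10). Cacna2d1 (a receptor of gabapentin) and Cacna2d3 made up 42.4% ± 4.19 and 39.7% ± 2.07 of the summed RPKM of the alpha2delta subunits. Cacna2d4 was at 0.2149 RPKM. Some of these orders depended on the length used. With the longest transcript as the length, Cacnb2 stood at 16.92 RPKM, above Cacnb4 at 16.13. Cacna2d3 then stood at 37.36 RPKM, above Cacna2d1 at 28.56. Hcn2, an HCN gene of forebrain, made up 75% ± 2.6 of the summed RPKM of the HCN genes. Hcn2 stood at 38.92 ± 3.81 RPKM, Hcn3 at 4.322 ± 0.574 and Hcn4, the main gene of the cardiac pacemaker, at 0.3465 ± 0.121. The kit does not keep the strand, and exons of 10 channel genes, Scn9a, Cacna1a, Cacna1d, Cacna1h, Cacna1s, Cacna2d2, Cacnb1, Cacnb2, Cacnb4 and Hcn3, share bases with genes on the other strand, so counts of these genes are uncertain to that extent. For Cacna1d the shared stretch was 589 bases with Chdh, and for Cacnb4 it was 1433 bases with A430018G15Rik.

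The first comparison, transgenic vehicle against wildtype vehicle, asks how the channel genes differ with the transgene. None of the 32 differed past the threshold: edgeR's quasi-likelihood test with Benjamini-Hochberg adjustment called 0 (adjusted p below 0.05), as it did for 0% of the 17009 genes tested. At an unadjusted p below 0.05 it called 0 channel genes against 1.33% of all genes, and DESeq2 also called 0 by either rule. The median log2 fold change was 0.01 over the channel genes and 0.00 over all genes, and 16 of 32 were below 0, against 49.9% of all genes. All 32 lay within 0.3 on the log2 scale of no difference, as did 97.4% of all genes. For all 32 the ranges of the groups overlapped.

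Hcn4, the pacemaker gene, had the smallest p in this comparison. Wildtype libraries stood at 1.106 CPM (lowest), 1.988 (median) and 3.408 (highest), and transgenic vehicle libraries at 1.242, 1.77 and 2.21. All transgenic values lay within the wildtype range. The log2 fold change was -0.29 (SE 0.192; unadjusted p = 0.136 and adjusted p = 0.9998 by edgeR), and without the 4 libraries it was -0.35 (unadjusted p = 0.0484 by edgeR). Scn9a stood at 4.087, 5.924 and 7.999 CPM in wildtype and at 4.073, 5.913 and 6.451 in transgenic vehicle, a log2 fold change of -0.14 (SE 0.11; unadjusted p = 0.207 by edgeR). Scn4b, a beta subunit tied to resurgent current, stood at 28.94, 39.27 and 47.26 CPM in wildtype and at 28.28, 36.81 and 77.69 in transgenic vehicle. Its transgenic mean was higher although its transgenic median was lower (log2 fold change 0.19, SE 0.189; unadjusted p = 0.332 by edgeR), and the fold change was 0.04 without transgenic vehicle 6, the highest library. Cacna2d1 differed by -0.07 (SE 0.0882; unadjusted p = 0.406 by edgeR), with 139.4, 214.1 and 265.3 CPM in wildtype and 154.0, 201.0 and 243.3 in transgenic vehicle. The leading genes of the families were near equal: Scn8a differed by 0.03 (SE 0.103), Cacna1e by -0.02 (SE 0.0881), Cacnb3 by 0.02 (SE 0.067) and Hcn2 by 0.04 (SE 0.0805).

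The second comparison, vorinostat against vehicle within the transgenic mice, asks how the channel genes differ with the drug. Again edgeR's quasi-likelihood test with Benjamini-Hochberg adjustment called 0 of 32 channel genes, and 0% of all genes. At an unadjusted p below 0.05 it found 3 of 32, all lower with vorinostat and among them Hcn2 and Cacnb3, where 14.4% of all genes passed in either direction and 6.64% were lower, so the share of channel genes was near that of all genes. DESeq2 called 0 and found 3 at an unadjusted p below 0.05. The median log2 fold change was -0.09 over the channel genes and 0.00 over all genes. The fold change was below 0 for 23 of 32 channel genes, against 49.1% of all genes. All 32 lay within 0.3 on the log2 scale of no difference, as did 95.2% of all genes, and all 32 had overlapping groups.

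Hcn2 had the smallest p. Transgenic vehicle libraries stood at 112.7 CPM (lowest), 128.3 (median) and 140.9 (highest), and vorinostat libraries at 76.05, 113.8 and 133.4. The lowest 3 vorinostat values were those of the libraries with high mitochondrial shares, and 8 of 9 vorinostat libraries lay below the transgenic vehicle mean. The log2 fold change was -0.25 (SE 0.0828; unadjusted p = 0.00461 and adjusted p = 0.345 by edgeR). Without the 4 libraries it was -0.10 (unadjusted p = 0.0783 and adjusted p = 0.966 by edgeR). In the authors' deposited table of adjusted values, limma gave a difference of -0.25 in the log units of that table (adjusted p = 0.0477). Hcn2 was the 1 channel gene past the threshold there, where 0.244% of its 18014 genes passed. The limma fit did not count the terms of the authors' adjustment, which are not given, so its p-values may be too small.

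Cacnb3 stood at 178.9, 204.3 and 251.4 CPM in transgenic vehicle and at 153.7, 195.0 and 221.2 in vorinostat, a log2 fold change of -0.16 (SE 0.0688; unadjusted p = 0.0307 by edgeR), and -0.07 without the 4 libraries. Cacna1a stood at 139.9, 160.4 and 191.5 CPM in transgenic vehicle and at 88.06, 154.2 and 174.7 in vorinostat. Its values in vorinostat 6, 7 and 9 were all at or below 90.62 CPM and those of the other 6 all at or above 154.0. The log2 fold change of Cacna1a was -0.23 (SE 0.118; unadjusted p = 0.0653 by edgeR), and 0.01 without the 4 libraries. The adjusted p-values of Cacnb3 and Cacna1a in edgeR stood above the threshold of 0.05.

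**Figure D2:**
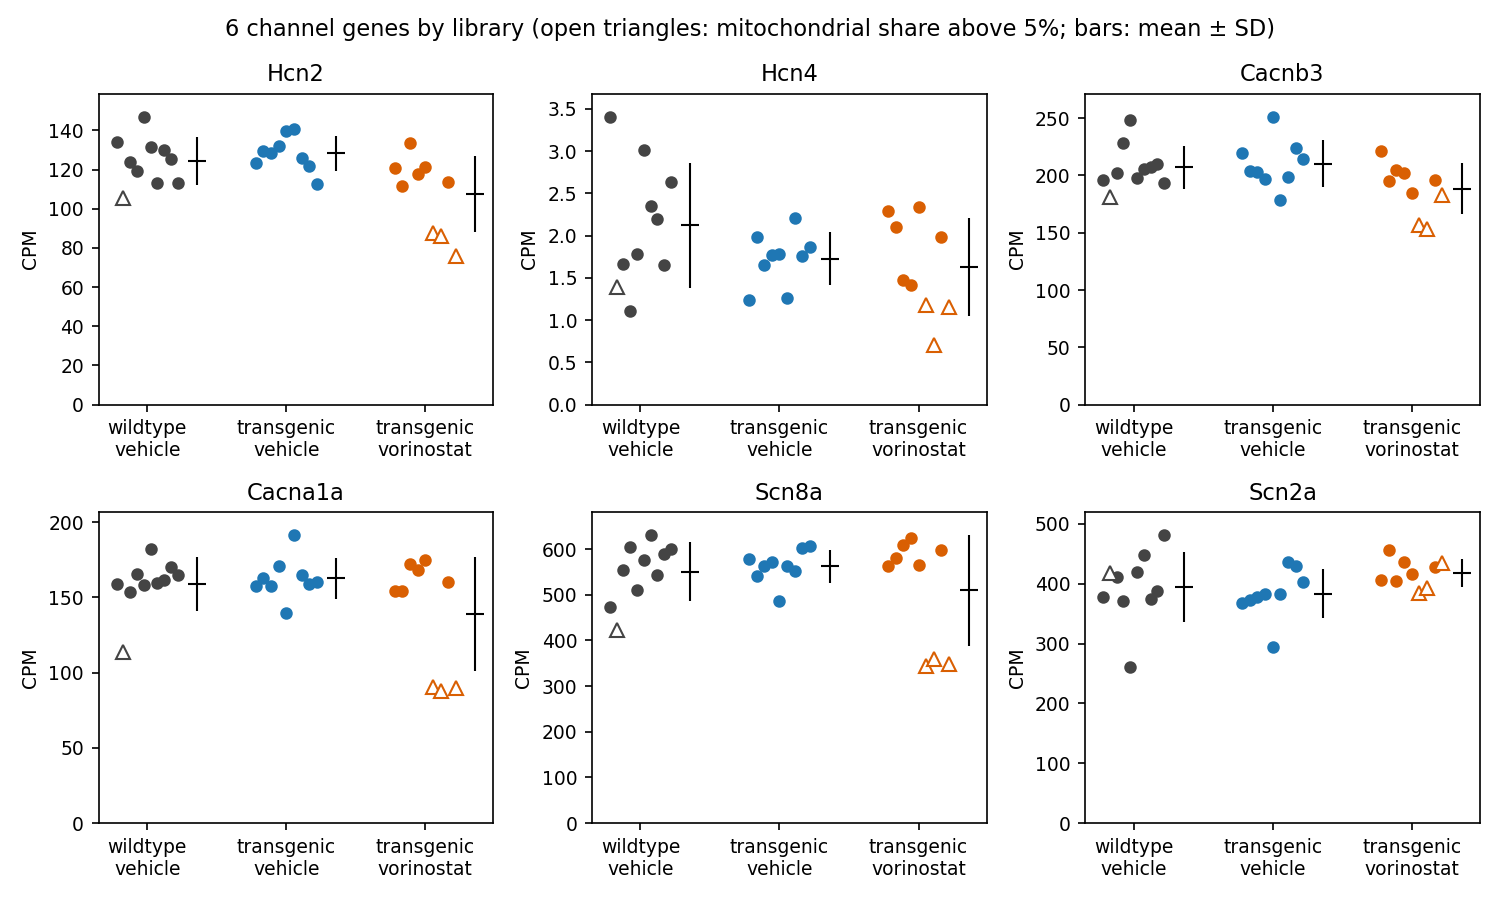
CPM of 6 channel genes in each library by group, with mean ± SD bars and open triangles for the 4 libraries with mitochondrial shares above 5%. The 3 open triangles in the vorinostat group lie below all other vorinostat libraries for Hcn2, Hcn4, Cacnb3, Cacna1a and Scn8a. For Scn2a 2 of the 3 lie below all others and vorinostat 9 among them.

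The third comparison, vorinostat in transgenic mice against wildtype vehicle, shares the vorinostat libraries with the second and the wildtype libraries with the first. Here edgeR's quasi-likelihood test with Benjamini-Hochberg adjustment called 0 of 32 channel genes, and 0% of all genes. At an unadjusted p below 0.05 it found 1, Hcn2, where 12.6% of all genes passed in either direction and 5.71% were lower. DESeq2 called 0 and found 2 at an unadjusted p below 0.05. The median log2 fold change was -0.09 over the channel genes and 0.01 over all genes, and 22 of 32 were below 0, against 48.3% of all genes. Within 0.3 on the log2 scale lay 31 of 32, all except Hcn4.

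Hcn2 stood at 105.3, 124.7 and 147.1 CPM in wildtype vehicle, against 76.05, 113.8 and 133.4 in vorinostat, a log2 fold change of -0.21 (SE 0.0808; unadjusted p = 0.015 and adjusted p = 0.384 by edgeR). Here too 8 of 9 vorinostat libraries lay below the wildtype mean, and without the 4 libraries the fold change was -0.08. Hcn4 had the largest difference in size, -0.38 (SE 0.194; unadjusted p = 0.0628 by edgeR) and -0.19 without the 4 libraries, with 0.705, 1.478 and 2.339 CPM in vorinostat against 1.106, 1.988 and 3.408 in wildtype. Cacnb3 differed by -0.13 (SE 0.0671; unadjusted p = 0.0534 by edgeR) and by -0.07 without the 4, with groups that overlapped. In the authors' deposited table limma passed Hcn2 (-0.19 in the log units of that table, adjusted p = 0.0232) and Cacna1a (adjusted p = 0.0374), where 14.8% of its genes passed. The limit given above for the p-values of limma holds here too.

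**Figure D3:**
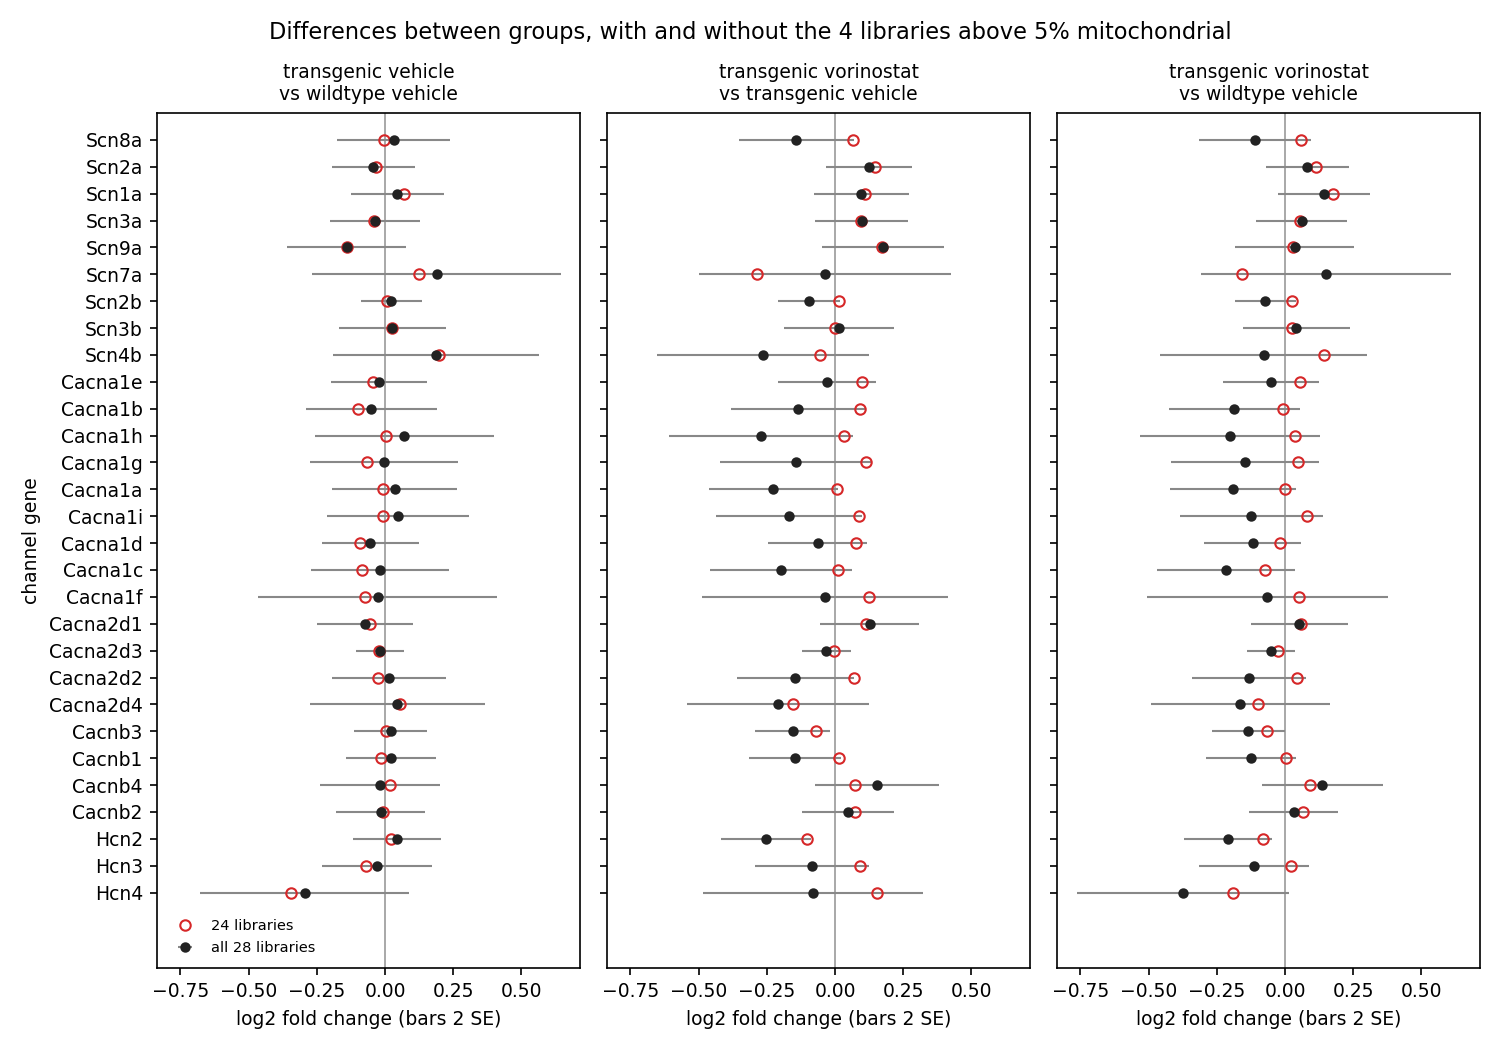
Log2 fold change of 29 tested channel genes in the 3 comparisons, with bars of 2 SE (filled points, all 28 libraries) and the values without the 4 libraries of high mitochondrial share (open points, 24 libraries). In both vorinostat panels the filled points of all 9 Cacna1 genes lie below 0, and in the middle panel all 9 open points lie above 0.

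The signs of the vorinostat differences in the pore-forming calcium channel genes depended on whether the 4 libraries were included. Of these 4 libraries 3 are vorinostat libraries, so the drug and the state of those libraries cannot be told apart. All 9 tested Cacna1 genes were lower in mean with vorinostat than with vehicle in transgenic mice, with a median log2 fold change of -0.14 and a range of -0.27 (Cacna1h) to -0.03 (Cacna1e). Without the 4 libraries all 9 were higher, with a median of 0.09. Medians of other families also crossed 0 in this comparison when the 4 were left out. That of the Hcn genes went from -0.08, with 3 of 4 below 0, to 0.12, with 3 of 4 above 0. The alpha2delta median went from -0.09 to 0.03 and that of the calcium channel beta subunits from -0.05 to 0.04. Of the sodium channel beta subunits, 3 of 4 were below 0 both with and without the 4. Of the 7 tested sodium channel alpha subunits, 4 were above 0 with the 4 libraries and 6 without. Against wildtype vehicle all 9 Cacna1 genes were lower over all libraries, with a median of -0.15, and 5 were higher and 4 lower without the 4. None of the Cacna1 genes passed an adjusted threshold in any of these fits. Without the 4 libraries, in vorinostat against transgenic vehicle, 2 of 32 channel genes had an unadjusted p below 0.05 by edgeR. Among them was Cacna1g, higher with vorinostat. Over all genes 664 of 17292 did so in that fit. Over all 32 channel genes, the fold change changed sign without the 4 libraries for 17 in vorinostat against transgenic vehicle, for 13 in vorinostat against wildtype and for 7 in transgenic vehicle against wildtype. In vorinostat against transgenic vehicle, 16 of those 17 went from below 0 to above it, and 24 of 32 were then above 0. Over all genes 48.3% were above 0 in that fit. Changes of sign were not counted over all genes.

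Within the vorinostat group, libraries 6, 7 and 9 lay below all 6 others for 18 of the 32 channel genes and above all 6 for 0. Over all tested genes these shares were 20.5% and 19.9%. The 18 comprised 8 of 9 Cacna1 genes, 4 of 4 Hcn genes, 2 of 7 sodium channel alpha subunits, 1 of 4 sodium channel beta subunits, 1 of 4 alpha2delta and 2 of 4 calcium channel beta subunits. Cacna1h, a T-type gene, averaged 83.3 CPM in the 3 libraries, while the other 6 ran from 176.6 to 219.3. Scn8a averaged 350.6 CPM in the 3, while the other 6 ran from 562.3 to 623.5. Scn2a averaged 404.0 CPM in the 3, with vorinostat 6 at 384.7 and vorinostat 7 at 393.5 below the 404.7 to 456.6 of the other 6, and vorinostat 9, at 433.9, among them. Cacnb4 averaged 161.8 CPM in the 3, above the mean of 137.9 in the others. The single such wildtype library, wildtype vehicle 2, held the lowest wildtype value of Cacna1a, 113.5 CPM, where the other 9 ran from 153.8 to 181.9. RNA quality, dissection and handling were not recorded per library in the sources used here, and their part in these values was not tested.

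Channel genes with GC-rich transcripts were all of lower mean level with vorinostat, as were some of those with GC-poor transcripts. Ordered by the GC content of the longest transcript, the log2 fold change with vorinostat against transgenic vehicle had a Spearman correlation of -0.81 and a Pearson correlation of -0.82 across the 32 genes, which share all libraries and are not replicates. Against wildtype the values were -0.78 and -0.79, and for transgenic vehicle against wildtype they were 0.38 and 0.13. The same held over all genes, with Spearman correlations of -0.66, -0.65 and 0.09 over 16961 genes, so the pattern is not particular to the channels. Divided at a GC content of 51.7%, all 16 GC-rich channel genes were lower in mean with vorinostat in both comparisons, with medians of -0.15 and -0.13, and 9 and 10 of the 16 GC-poor ones were higher. Hcn2 (65.4% GC) and Cacnb3 (61.3%) are among the GC-rich ones. The genes higher in mean with vorinostat included Scn9a (0.18), Cacnb4 (0.16), Cacna2d1 (0.13) and Scn2a (0.12), with transcripts of 40.5% to 43.4% GC.

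This relation was weaker without the 4 libraries, with Spearman correlations of -0.31 and -0.35 in the vorinostat comparisons. A fit in which each library's own trend on GC was removed gave -0.10 and 0.01. That fit takes out a relation to GC by design, so values near 0 were set in advance and test nothing. In that fit Hcn2 differed by -0.09 in vorinostat against transgenic vehicle (unadjusted p = 0.035 and adjusted p = 0.805 by edgeR) and Cacnb3 by -0.0046. In vorinostat against transgenic vehicle, with all libraries kept, that fit left 8 of 9 Cacna1 genes below 0. It also left 12 of 16 GC-rich channel genes below 0, and 5 of 16 GC-poor ones were above 0. Over all genes 50.6% were above 0 there. Against wildtype 13 of 16 GC-rich channel genes were below 0 and 5 of 16 GC-poor ones above 0, with 51.7% of all genes above 0. With the 4 libraries left out and the GC trend removed, Hcn2 differed by -0.04 and by 0.00 in the vorinostat comparisons.

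**Figure D4:**
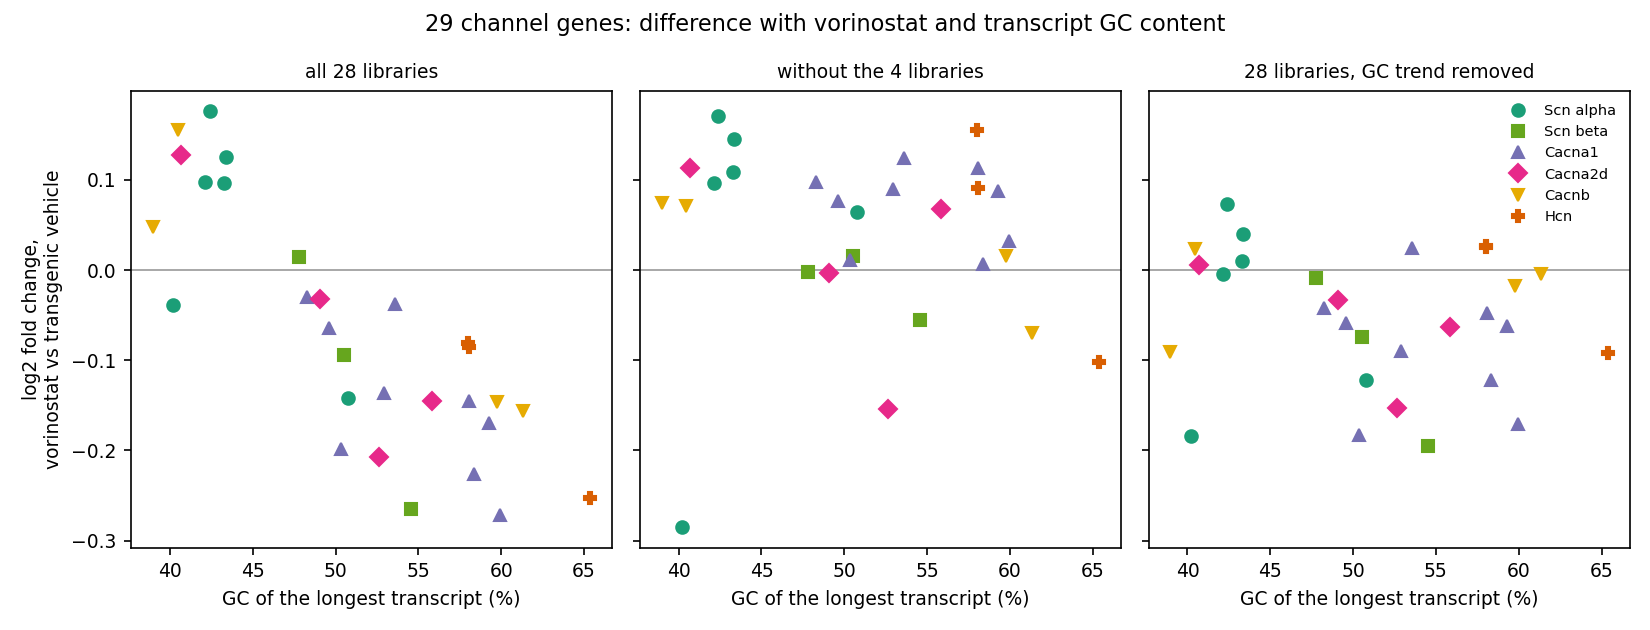
Log2 fold change of vorinostat against transgenic vehicle (vertical axis) by GC content of the longest transcript (horizontal axis, %) for 29 tested channel genes, over all 28 libraries (left), without 4 libraries (middle) and with each library's GC trend removed (right). The Spearman correlation over all 32 tested genes is -0.81 at left, -0.31 in the middle and -0.10 at right. At right a value near 0 is set by design, because the trend on GC was taken out.

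The trend differed from library to library. The slope of log2 CPM deviation on GC over all genes ran from -0.344 to -0.158 per 10 points of GC in the 4 libraries and from -0.0803 to 0.26 in the other 24. The difference in mean log2 deviation between GC-rich and GC-poor channel genes ran from -0.59 to -0.21 in the 4 and from -0.18 to 0.43 in the other 24. Wildtype vehicle 5, at 0.43, and transgenic vehicle 5, at 0.28, stood at the other end, with mitochondrial shares of 3.68% and 3.91%. The RPKM ratio of Scn8a to Scn2a was 0.65 to 0.82 in the 4 libraries and 1.01 to 1.58 in the other 24, without overlap. Both genes fall in the GC-poor part of the division, with transcripts of 50.75% and 43.36% GC.

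**Figure D5:**
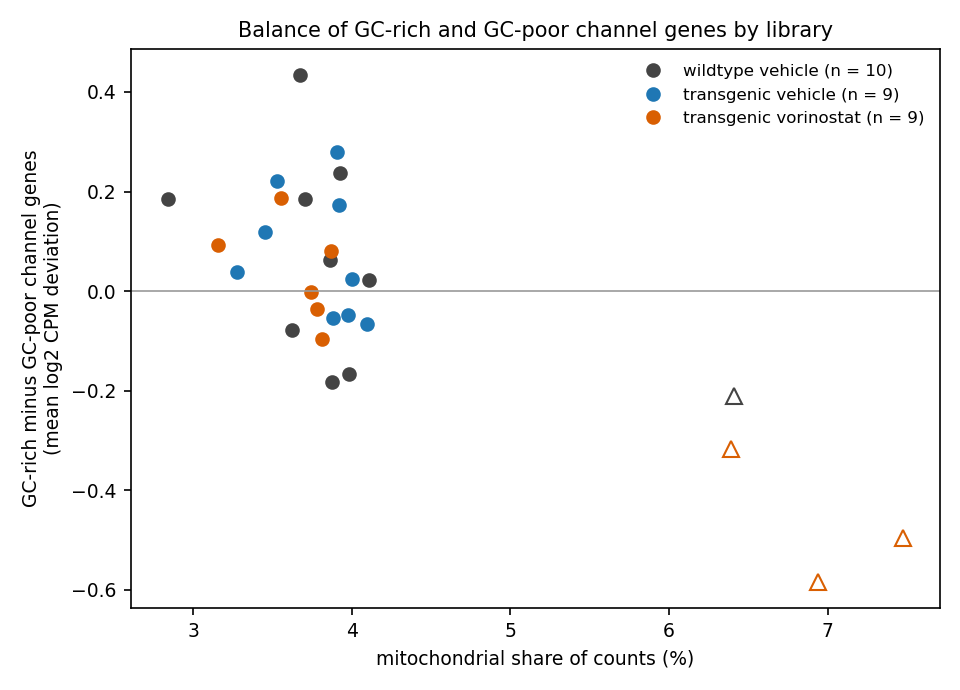
Mean log2 CPM deviation of the 16 GC-rich minus that of the 16 GC-poor channel genes (vertical axis) by mitochondrial share of counts (horizontal axis, %) in each of 28 libraries, coloured by group, with open triangles for shares above 5%. The 4 triangles lie between -0.59 and -0.21, and the other libraries between -0.18 and 0.43.

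Of the 86 listed cell type markers tested, edgeR's quasi-likelihood test with Benjamini-Hochberg adjustment called 0 in each comparison, and DESeq2 called 0, 0 and 0. At an unadjusted p below 0.05 edgeR found 2, 12 and 12 of 86 in the order above, against 1.33%, 14.4% and 12.6% of all genes. Marker values here include the 4 libraries of high mitochondrial share. The 4 listed erythroid genes summed to 36.7 to 135 CPM in vorinostat, 17.95 to 46.1 in transgenic vehicle and 21.1 to 106 in wildtype vehicle, and 4 of 4 had an unadjusted p below 0.05 in both vorinostat comparisons. Dentate granule markers summed to 47.8 to 86.3 CPM in vorinostat, 57.5 to 121 in transgenic vehicle and 41.8 to 131 in wildtype vehicle. The medians of these sums were 62.5, 76.9 and 63.5 CPM. Against transgenic vehicle 6 of 6 were lower in mean with vorinostat, 2 of them at an unadjusted p below 0.05 by edgeR. Against wildtype 2 of 6 were higher with vorinostat, and 5 of 6 were higher in transgenic vehicle. CA3 markers summed to 289 to 598 CPM in vorinostat, 297 to 669 in transgenic vehicle and 322 to 697 in wildtype vehicle. Against transgenic vehicle the median log2 fold change with vorinostat was -0.17 for CA3 markers, -0.12 for CA1 pyramidal markers and -0.27 for CA2 markers. In that comparison 2 of 8 CA1 pyramidal and 1 of 5 CA2 markers were higher in mean. None of the listed markers stood at 0 in all libraries. The part of blood or of neighbouring fields in the channel values was not tested.

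Partner genes of the channels were taken from a list of 47: TARP and other gamma subunits, NALCN complex genes, HCN partners, ankyrins, FGF homologous factors, calmodulins, calcium channel scaffolds and small GTPases, CaM kinases and others. Of these 45 were tested, and edgeR's quasi-likelihood test with Benjamini-Hochberg adjustment called 0 in each of the 3 comparisons, as did DESeq2. Unadjusted p-values below 0.05 were found for 0, 8 and 4 of 45 (0, 8 and 7 by DESeq2), against the 1.33%, 14.4% and 12.6% of all genes given above. With vorinostat 32 of 45 were lower in mean than in transgenic vehicle, against 49.1% of all genes. Without the 4 libraries 25 of 45 were higher, against 48.3% of all genes. Gene by gene, 14 went from below 0 to above without the 4 libraries, 2 went the other way and 29 kept their sign. Kctd3, a partner of Hcn3, stood at 79.55, 86.33 and 89.6 CPM in transgenic vehicle and at 68.3, 78.73 and 87.39 in vorinostat (log2 fold change -0.12, SE 0.0417; unadjusted p = 0.00773 by edgeR), and its fold change was -0.06 without the 4 libraries. Fgf14, which binds sodium channels at the axon initial segment, stood at 23.27, 25.95 and 27.13 CPM in transgenic vehicle and at 25.92, 28.38 and 35.52 in vorinostat (log2 fold change 0.20, SE 0.0781; unadjusted p = 0.0161 by edgeR), and its fold change was 0.14 without the 4 libraries.

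Gem, a small GTPase that lowers calcium channel current, had the smallest partner p against wildtype. Its wildtype libraries stood at 0.955, 1.306 and 2.065 CPM and its vorinostat libraries at 1.339, 1.797 and 2.354, which overlapped. Its log2 fold change was 0.43 (SE 0.142; unadjusted p = 0.00505 and adjusted p = 0.384 by edgeR), and 0.41 without the 4 libraries. Cacng3, a TARP, followed at -0.16 (SE 0.0632; unadjusted p = 0.0151 by edgeR) and -0.11 without the 4 libraries, with 66.04, 71.92 and 85.28 CPM in wildtype and 52.25, 64.43 and 83.28 in vorinostat. In transgenic vehicle against wildtype the partners of smallest p were Rem2 (-0.14, SE 0.0922; unadjusted p = 0.146 by edgeR), with 7.333, 9.673 and 13.0 CPM in wildtype and 7.792, 9.203 and 10.57 in transgenic vehicle, and Stac (0.18, SE 0.126; unadjusted p = 0.158 by edgeR), with 6.168, 9.55 and 11.44 and 7.905, 11.42 and 13.04.

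The authors' deposited table of coexpression modules, groups of genes whose levels move together over samples, listed 33 of the 36 channel genes. Of these 33, the authors' deposited table placed 13 (39.4%) in the module named green, which holds 16.5% of its genes, and 6 (18.2%) in greenyellow, which holds 4.78%. The green module included 4 Cacna1 genes that passed the filter, Cacna1a, Cacna1g, Cacna1h and Cacna1i, with Scn8a, Scn2b, Cacna2d2, Cacnb1, Cacnb3, Hcn3 and Hcn4, and also Cacna1s. The greenyellow module of the authors' deposited table held Scn2a, Scn3a, Scn7a, Scn9a, Cacna1f and Cacna2d1. Scn4b and Hcn2 shared the module cyan, and Cacna1b, Cacna1c and Cacna1d the module brown. The median transcript GC content was 58.1% for the channel genes of green and 42.3% for those of greenyellow in the authors' deposited table. The modules were made from values that include these libraries and give no independent support for the differences above.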

How the data were processed

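Raw read counts for each gene were deposited, one file a library. The submitters' processing notes name STAR 2.5.2b, Subread 1.5.1 with featureCounts, FastQC 0.11.5 and mm10, while annotation release and strand setting are not given in the sources used here. Also deposited by the authors were a mixed-model table of adjusted values, read here as log2 although its log base and terms are not given, and a table of coexpression modules with a membership score and its p-value for each gene; p-values from that deposited table are not printed.

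The members and the partner and marker lists were chosen with earlier results of these data known. Apart from members not reported here, the genes named with full values are the 4 channel genes and 2 partners of smallest p in each comparison and the leading gene of each family; 3 tested members are counted in all totals but not reported by name here. All 48709 identifiers, 48349 with a symbol, entered library totals. Genes passing edgeR's filter (minimum count 10, minimum total 15; 17009 genes) were fitted once over 28 libraries in R 4.3.3 with edgeR 4.0.16, using TMM scaling and its robust quasi-likelihood test, and adjusted by Benjamini and Hochberg within each comparison. The script was tested on simulated data. RPKM used GENCODE M21 exon lengths, and transcript GC came from the longest transcript.

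Alternatives were DESeq2 1.42.0, other scaling and filters, 2 groups alone, each library left out, replicate blocks, the 4 libraries left out, mitochondrial share or Xist as covariates, and limma 3.58.1 on the adjusted values. Removal of GC trends and limma counts were added after seeing the data. Totals of 20230085 to 33191857 counts leave genes under 1 CPM with few reads. Within groups, 117 library pairs were compared and 0 were identical, with a chi-square per degree of freedom of 3.37 to 87.4, so no library was merged.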

Additional observations from a re-analysis of the deposited data

Results flagged for a closer look

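Of 87 pairs of a named or plotted channel gene and a group, 11 held 1 library that lay far from the others of its group. Chance flags about 1 in 20 independent pairs, but these pairs share libraries and are not independent. The share of such pairs over all genes was not counted. In 8 of the 11 that library was one of the 4 with mitochondrial shares above 5%. Wildtype vehicle 2 lay below its 9 fellow libraries for 16 of the 32 tested channel genes. The share over all genes was not counted here either, so neither count is shown to be particular to channel genes. Wildtype vehicle 2 lay far from its fellow libraries for 7: Cacna1a at 113.5 CPM (others 153.8 to 181.9), Cacna1c at 58.12 (95.67 to 120.0), Cacna1g at 102.1 (163.0 to 192.3), Cacna1i at 66.83 (97.98 to 119.2), Cacna2d2 at 40.84 (52.48 to 60.11), Cacnb1 at 122.9 (149.5 to 176.4) and Scn2b at 272.9 (296.9 to 317.9). Scn7a, the sodium sensor gene, was at 3.167 CPM in transgenic vorinostat 9, with the others of that group at 0.94 to 1.565.

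The other 3 lay outside those libraries. Scn2a was at 260.8 CPM in wildtype vehicle 5 (others 370.8 to 481.3) and at 295.1 in transgenic vehicle 5 (368.1 to 436.7). Cacna2d4 was at 3.192 CPM in transgenic vehicle 6 (1.51 to 2.36). The GC-poor gene Scn2a was thus low in wildtype vehicle 5, the library with the steepest rise of log2 CPM with GC, 0.26 per 10 points. What sets these libraries apart was not tested.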

How the results depend on the processing

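By edgeR or DESeq2, 0 channel genes and 0 partner genes passed the adjusted threshold in any comparison under every alternative run on the counts, including each of the 28 libraries left out in turn (range 0 to 0). Limma on the authors' adjusted values passed 1 channel gene in vorinostat against transgenic vehicle, 2 in vorinostat against wildtype, and 9 of 45 partner genes in the latter, where 14.8% of all genes passed; the cause was not tested. The replicate numbers of the titles and of the descriptions could not be shown to pair samples (median correlation of same-numbered deviations 0.06 and 0.05, with 3 and 0 of 28 libraries closest to their own number), and with either number as a replicate block 0 channel genes and 0 partner genes passed. At an unadjusted p below 0.05, leaving out 1 library gave 2 to 6 channel genes in vorinostat against transgenic vehicle (6 of 32 without vorinostat 4, where 17.3% of all genes passed) and 1 to 6 in vorinostat against wildtype (6 of 32 without wildtype vehicle 2, where 22.2% passed). These single-gene fold changes changed sign. Hcn4 in transgenic vehicle against wildtype was 0.0151 by limma on the authors' values. Without the 4 libraries, Cacna1a in vorinostat against transgenic vehicle was 0.0073, and 0.0415 with the GC trend also removed. With the GC trend removed, Cacnb3 was 0.0093 against wildtype; with the 4 libraries also left out, Hcn2 was 0.001 against wildtype. Using the longest transcript as the length moved wildtype RPKM to 75.73 for Cacnb3, 48.15 for Scn8a and 44.15 for Cacna1e. It reversed the order of Cacnb4 and Cacnb2 and that of Cacna2d1 and Cacna2d3. It also put Cacna1c, at 7.707, above Cacna1d, at 7.012. With the mitochondrial share as a covariate, 19 of 32 channel genes were higher with vorinostat than with vehicle in transgenic mice, against 47.6% of all genes. For Hcn4 in transgenic vehicle against wildtype the interval of 2 SE either side ran from -0.68 to 0.09. In that comparison, leaving out 1 library gave -0.36 to -0.20 for Hcn4, -0.20 to -0.09 for Scn9a, -0.13 to -0.03 for Cacna2d1 and 0.04 to 0.25 for Scn4b.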
